A study of Mus musculus with 10 samples.

Results

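Mlxipl encodes the carbohydrate response element-binding protein ChREBP, a transcription factor of liver, and it was examined here with 7 genes known to follow it. The 8 genes were Mlxipl, Pklr, Khk, Tkfc, Gpd1, Txnip, Arrdc4 and Rgs16, picked by name out of 29657 genes in the table, and all 8 passed the filter on low values that left 13471 genes for testing. They were chosen by their role and with the difference between the groups in these same libraries already known, so that difference is described below by its values, and nothing is read from how many members pass a threshold. The libraries were bulk liver RNA from wild-type C57BL/6 mice, every one fed for 8 weeks on CDAHFD, a high-fat diet without choline that is used to bring on steatohepatitis. In one group, 5 libraries came from mice given AAV8-TBG-galectin-3 by vein, a vector with the hepatocyte-active TBG promoter that the labels describe as a liver knockdown of galectin-3. In the other group, 5 libraries came from mice given AAV8-NC, the negative control vector. Both groups thus carried AAV8 and the diet, no library came from mice on another diet, and the labels do not say what the galectin-3 vector expresses.

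ChREBP works as a dimer with its partner Mlx and is switched on by the products of glucose and fructose breakdown. The dimer binds carbohydrate response elements, which are paired E-box-like arms with a fixed spacing, in genes of glycolysis, fructose use and fat synthesis. Mlxipl itself has an alternative upstream promoter with such a site, through which the active protein raises a shorter and more potent form, ChREBP-beta. In liver the pathway is known for turning a carbohydrate meal into pyruvate, glycerol and fatty acid.

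The promoter windows of the 6 members that hold a motif match are shown because this is where ChREBP is known to act on several of them. RefSeq windows on GRCm38.p6, reaching from 250 bases before to 50 bases after an annotated start, were found for 7 of the 8 genes, 9 windows in all, and Gpd1 is named only. The mouse build behind the FPKM values is not known from the labels or headers, so these coordinates belong to the RefSeq table alone. Capitals mark a match on either strand to the E-box CACGTG, or to the paired arms CANGNG and CNCNTG with 5 bases between them, which Pklr matched fully and Txnip and Rgs16 with 1 mismatch. No match of one kind overlapped a match of the other in these windows.
Mlxipl, upstream start: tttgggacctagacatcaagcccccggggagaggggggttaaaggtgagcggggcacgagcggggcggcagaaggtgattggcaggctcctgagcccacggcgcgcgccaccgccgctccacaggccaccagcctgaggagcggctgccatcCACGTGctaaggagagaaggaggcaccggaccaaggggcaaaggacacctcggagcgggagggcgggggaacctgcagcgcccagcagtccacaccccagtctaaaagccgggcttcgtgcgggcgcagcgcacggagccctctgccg
Pklr, downstream start: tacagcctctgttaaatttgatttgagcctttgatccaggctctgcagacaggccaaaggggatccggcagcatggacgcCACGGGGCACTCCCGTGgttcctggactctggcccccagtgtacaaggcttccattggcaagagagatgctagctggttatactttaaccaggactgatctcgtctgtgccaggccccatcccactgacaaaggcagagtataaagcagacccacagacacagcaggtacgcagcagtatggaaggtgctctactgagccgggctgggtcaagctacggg
Khk: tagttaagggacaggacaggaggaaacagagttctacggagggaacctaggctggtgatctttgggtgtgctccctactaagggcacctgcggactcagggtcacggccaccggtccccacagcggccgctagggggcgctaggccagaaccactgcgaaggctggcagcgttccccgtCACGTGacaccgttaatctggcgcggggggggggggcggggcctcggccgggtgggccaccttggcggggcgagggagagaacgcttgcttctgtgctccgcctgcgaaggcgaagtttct
Txnip: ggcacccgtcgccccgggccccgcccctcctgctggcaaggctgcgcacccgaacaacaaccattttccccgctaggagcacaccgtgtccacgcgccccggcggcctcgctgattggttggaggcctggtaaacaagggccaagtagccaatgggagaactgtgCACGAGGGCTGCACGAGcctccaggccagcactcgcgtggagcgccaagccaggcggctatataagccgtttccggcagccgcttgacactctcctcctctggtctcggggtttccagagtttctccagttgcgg
Arrdc4: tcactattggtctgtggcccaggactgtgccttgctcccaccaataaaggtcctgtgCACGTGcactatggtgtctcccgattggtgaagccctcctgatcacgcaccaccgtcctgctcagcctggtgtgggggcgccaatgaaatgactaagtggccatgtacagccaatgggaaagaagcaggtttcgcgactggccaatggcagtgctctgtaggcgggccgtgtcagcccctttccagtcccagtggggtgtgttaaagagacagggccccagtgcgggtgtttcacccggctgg
Rgs16: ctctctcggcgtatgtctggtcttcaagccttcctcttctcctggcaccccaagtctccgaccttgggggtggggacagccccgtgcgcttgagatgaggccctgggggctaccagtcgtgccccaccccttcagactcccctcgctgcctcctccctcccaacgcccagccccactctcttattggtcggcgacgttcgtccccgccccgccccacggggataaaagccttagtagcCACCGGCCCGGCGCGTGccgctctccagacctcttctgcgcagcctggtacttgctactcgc

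The Mlxipl window at chr5:135089640-135089939 (plus strand) held an E-box 98 to 93 bases before the upstream start. It held no pair of arms, also with 1 mismatch allowed. The window of the downstream Mlxipl start, 17001 bases further on at chr5:135106641-135106940, held no match, and gene-level FPKM does not separate transcripts of the 2 starts. For Pklr, a complete pair of arms stood 170 to 154 bases before the downstream start, in chr3:89136373-89136672 (plus strand), which is the start known for the liver form. The window of the upstream Pklr start, at chr3:89135892-89136191, held none. Khk at chr5:30921309-30921608 (plus strand) had an E-box 71 to 66 bases before its start, and Arrdc4 at chr7:68749189-68749488 (minus strand) had one 193 to 188 bases before its start. A pair of arms with 1 mismatch lay 85 to 69 bases before the start of Txnip, at chr3:96557707-96558006 (plus strand). A match of the same quality began 12 bases before the start of Rgs16, at chr1:153740103-153740402 (plus strand), and ran across it. The Tkfc window, at chr19:10604209-10604508 (minus strand), held none of these letters. Over all 32851 RefSeq windows, 7.15% held the E-box, 0.557% the complete pair and 12.8% a pair with up to 1 mismatch, so the last kind is a weak description.

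**Figure D1:**
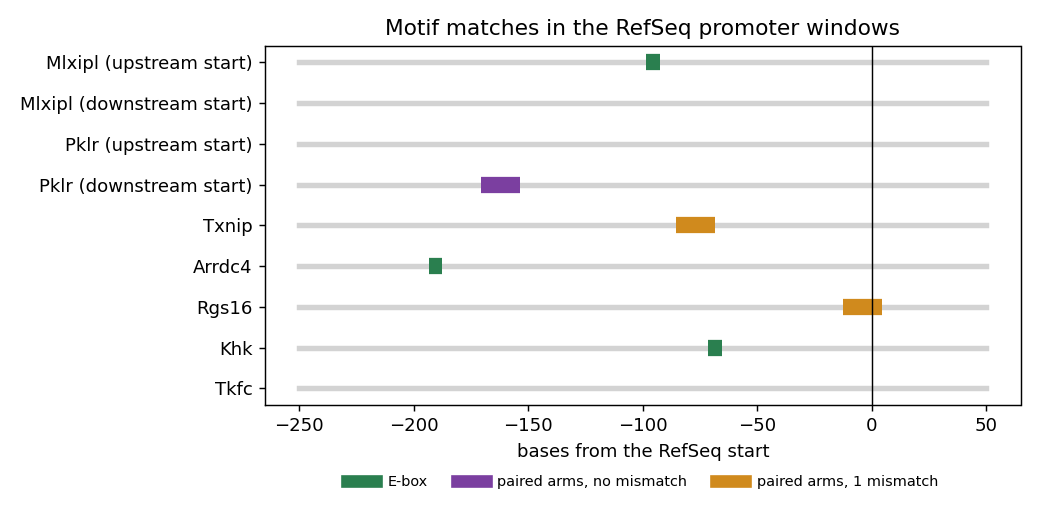
Position of motif matches in the 9 RefSeq promoter windows of 7 members, in bases from the annotated start on the horizontal axis, with 1 row per window. Green marks the E-box, purple the paired arms without a mismatch and orange the pair with 1 mismatch, and the downstream Mlxipl start, the upstream Pklr start and Tkfc carry no mark.

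The group labels were first checked on Lgals3, which encodes galectin-3. Lgals3 averaged 74.2 ± 20.1 FPKM in AAV8-TBG-galectin-3 livers and 70.8 ± 22.9 FPKM in AAV8-NC livers (SD, n = 5 each), where FPKM is a fragment count divided by transcript length and by library size. The log2 fold change was 0.08 (SE 0.25, adjusted p = 0.856 by limma), and the exact two-sided permutation p was 0.794, where the smallest possible is 0.00794. Leaving out AAV8-TBG-galectin-3 library 2 or AAV8-NC library 5 turned its sign, to -0.0096 or -0.093. A lower Lgals3 level was therefore not measured in whole liver, where other cells than hepatocytes also express it, and every direction below rests on the labels of the libraries. Each library had between 21653 and 23079 genes above 0. Hepatocyte marker genes summed to 31464 to 39956 FPKM in AAV8-TBG-galectin-3 livers and 35279 to 39464 FPKM in AAV8-NC livers. That sum is dominated by albumin. Of the 8 markers 1 rose and 3 fell, beside 7.13% higher and 9.65% lower among all tested genes. The 1 was Ttr, at a log2 fold change of 0.40 (adjusted p = 0.0268 by limma). The 3 that fell stood at -0.42, -0.54 and -0.71 (adjusted p of 0.00944, 0.00941 and 0.00944 by limma). Neither Ttr nor any of the 3 overlapped between groups, a pattern shown by 13.1% of tested genes. By sign, 4 of the 8 were above 0 and 4 below. Transcripts encoded by mitochondria took 14.4 to 21.7% of FPKM in AAV8-TBG-galectin-3 livers and 13.0 to 16.9% in AAV8-NC livers. The slope of expression on log2 transcript length ran from -0.059 to -0.0070 in AAV8-TBG-galectin-3 livers and from 0.019 to 0.046 in AAV8-NC livers, without overlap.

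Mlxipl (ENSMUSG00000005373) was measured at 117, 93.7, 82.3, 68.1 and 92.8 FPKM in AAV8-TBG-galectin-3 livers, against 58.7, 52.5, 45.3, 46.7 and 34.1 FPKM in AAV8-NC livers. Every AAV8-TBG-galectin-3 library lay above every AAV8-NC library. The means were 90.7 ± 17.9 FPKM in AAV8-TBG-galectin-3 livers and 47.4 ± 9.14 FPKM in AAV8-NC livers (SD, n = 5 each), a ratio of 1.91, and the log2 fold change on the log2(FPKM + 1) scale was 0.92 (SE 0.16). With mitochondrially encoded genes left out of the scaling it was 0.88, and with the length trend removed it was 1.01. Mlxipl was the only member of the 8 whose groups did not overlap, a pattern shown by 13.1% of tested genes, 5.66% with AAV8-TBG-galectin-3 higher. The authors' deposited table gives Mlxipl a fold of 1.91 and does not mark it as significant, since every marked gene there had at least a 2-fold change.

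Pklr (ENSMUSG00000041237) encodes the liver and red cell pyruvate kinase, the last step of glycolysis. Its values were 117, 79.4, 138, 120 and 212 FPKM in AAV8-TBG-galectin-3 livers, against 112, 81.3, 42.6, 43.5 and 34.6 FPKM in AAV8-NC livers. AAV8-NC libraries 1 and 2 lay inside the range of the AAV8-TBG-galectin-3 libraries, and the other 3 lay below all of them. The means were 133 ± 49.0 FPKM in AAV8-TBG-galectin-3 livers and 62.9 ± 33.0 FPKM in AAV8-NC livers (SD, n = 5 each), a log2 fold change of 1.14 (SE 0.33). Without AAV8-NC library 1 it was 1.39. The authors' deposited table gives Pklr a fold of 2.12 and a q-value of 0.0642 from their unnamed test. Pklr is not marked as significant there, where marked genes had q-values up to 0.0498.

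Khk and Tkfc act in the use of dietary fructose. Khk (ENSMUSG00000029162) encodes ketohexokinase, which phosphorylates fructose, and stood at 189, 204, 217, 181 and 415 FPKM in AAV8-TBG-galectin-3 livers, against 198, 148, 119, 124 and 68.0 FPKM in AAV8-NC livers. AAV8-TBG-galectin-3 library 5 was far above the other 4, and AAV8-NC library 1 was the only one of its group inside their range. Tkfc (ENSMUSG00000034371) encodes triokinase, which phosphorylates the glyceraldehyde made from fructose. It stood at 141, 87.4, 150, 136 and 271 FPKM in AAV8-TBG-galectin-3 livers, against 122, 115, 58.1, 61.1 and 66.9 FPKM in AAV8-NC livers. Here AAV8-TBG-galectin-3 library 2 lay below AAV8-NC libraries 1 and 2, so the groups overlapped. The log2 fold change was 0.88 (SE 0.28) for Khk, with means of 241 ± 98.0 FPKM in AAV8-TBG-galectin-3 livers and 131 ± 47.1 FPKM in AAV8-NC livers (SD, n = 5 each). For Tkfc it was 0.86 (SE 0.29), with means of 157 ± 68.3 FPKM in AAV8-TBG-galectin-3 livers and 84.5 ± 31.1 FPKM in AAV8-NC livers.

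Rgs16 (ENSMUSG00000026475) encodes a regulator of G protein signalling that shortens signals from receptors coupled to Gi and Gq. It showed the largest ratio of group means of the 8 members, with 68.6, 89.2, 128, 57.3 and 145 FPKM in AAV8-TBG-galectin-3 livers, against 83.8, 20.0, 14.4, 16.1 and 9.95 FPKM in AAV8-NC livers. AAV8-NC library 1 alone reached the range of the AAV8-TBG-galectin-3 libraries, and the other 4 of its group were at or below 20.0 FPKM. The means were 97.7 ± 37.9 FPKM in AAV8-TBG-galectin-3 livers and 28.8 ± 30.9 FPKM in AAV8-NC livers (SD, n = 5 each), a ratio of 3.39. The log2 fold change was 2.08 (SE 0.48), and 2.57 without AAV8-NC library 1. Rgs16 was the 1 member of 8 that the authors' deposited table marks as significant, a mark given there to 398 genes or 1.34%.

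Txnip, Arrdc4 and Gpd1 stood at nearly the same level in both groups. Txnip (ENSMUSG00000038393) encodes thioredoxin-interacting protein, an alpha-arrestin that limits glucose uptake, and had 32.4, 36.6, 37.6, 29.8 and 30.5 FPKM in AAV8-TBG-galectin-3 livers, against 35.7, 29.8, 24.7, 26.7 and 29.2 FPKM in AAV8-NC livers. AAV8-NC library 1 lay inside the range of the AAV8-TBG-galectin-3 libraries and library 2 at its lower edge, while AAV8-NC libraries 3, 4 and 5 lay below it. The log2 fold change of Txnip was 0.19 (SE 0.11). Arrdc4 (ENSMUSG00000042659), the close relative of Txnip, had 3.19, 2.49, 4.31, 4.20 and 4.86 FPKM in AAV8-TBG-galectin-3 livers, against 4.03, 3.34, 4.02, 4.10 and 4.21 FPKM in AAV8-NC livers. The AAV8-TBG-galectin-3 libraries held both its lowest and its highest values. Gpd1 (ENSMUSG00000023019) encodes the cytosolic glycerol-3-phosphate dehydrogenase that supplies the glycerol backbone of fat. It had 75.8, 70.3, 84.6, 80.1 and 83.4 FPKM in AAV8-TBG-galectin-3 livers, against 81.8, 94.3, 78.5, 71.7 and 82.2 FPKM in AAV8-NC livers. The log2 fold change was -0.06 (SE 0.13) for Arrdc4 and -0.05 (SE 0.09) for Gpd1, and both signs turned when the length trend was removed, to 0.035 and 0.014. The sign also turned without AAV8-TBG-galectin-3 library 2 for Arrdc4 (0.050) and without AAV8-NC library 2 for Gpd1 (0.0040).

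**Figure D2:**
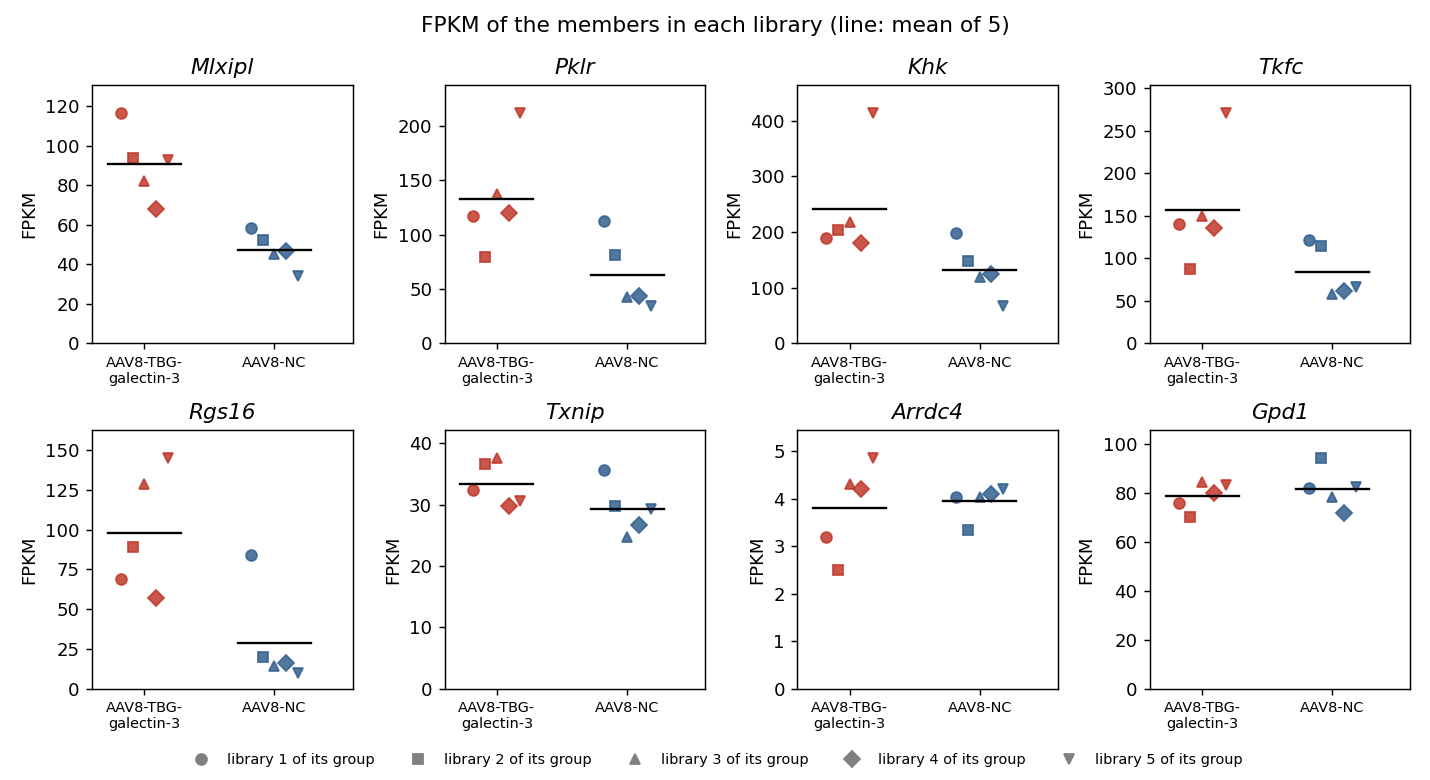
FPKM of the 8 members in each library, with AAV8-TBG-galectin-3 in red on the left of every panel and AAV8-NC in blue on the right. Point shapes number the 5 libraries within a group and do not pair them, and the line is the group mean. Mlxipl is the panel without overlap, and in Pklr, Khk, Tkfc and Rgs16 the red triangle of library 5 (point down) is the highest and the blue circle of library 1 is the highest of its group.

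Of the 8 members 5 had a log2 fold change above 0.8, and 0.564% of all tested genes lay above it. That cut was set after the values were seen and lies just under Tkfc at 0.86. The median over the members was 0.87, beside -0.04 over all tested genes. For description only, the limma fit over all genes placed 3 of the 8 under an adjusted p of 0.05 with AAV8-TBG-galectin-3 higher (Mlxipl, Pklr and Rgs16) and 0 with it lower. With 1 library left out, Mlxipl and Rgs16 stayed under it in 10 of 10 fits and Pklr in 4 (adjusted p up to 0.0833 by limma). Under the 11 other settings Mlxipl stayed under it in 11, Rgs16 in 10 and Pklr in 9. Among all tested genes 16.8% passed, 7.13% higher and 9.65% lower. That split depended on the scaling, with 1212 higher and 1017 lower genes under median-of-ratios scaling and 745 and 1605 without mitochondrially encoded genes, beside 960 and 1300 here. Since the members were picked with this contrast known, neither count nor the median is a test of them, and nothing is read from these values. The number of members called higher by limma was 2 to 5 with 1 library left out, and 5 without AAV8-NC library 1. With AAV8-TBG-galectin-3 library 5 and AAV8-NC library 1 both left out, an alternative chosen after seeing the data, the log2 fold changes were 0.99 for Mlxipl, 1.20 for Pklr, 2.40 for Rgs16, 0.83 for Khk and 0.79 for Tkfc.

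FPKM is scaled by transcript length, so levels can be ordered between genes. In AAV8-TBG-galectin-3 livers the mean levels ran from Khk at 241 FPKM through Tkfc at 157, Pklr at 133, Rgs16 at 97.7, Mlxipl at 90.7, Gpd1 at 78.8 and Txnip at 33.4 down to Arrdc4 at 3.81 FPKM. Neighbours down to Gpd1 had overlapping ranges, while Gpd1 and Txnip, and Txnip and Arrdc4, did not. In AAV8-NC livers the order was Khk at 131 FPKM, Tkfc at 84.5, Gpd1 at 81.7, Pklr at 62.9, Mlxipl at 47.4, Txnip at 29.2, Rgs16 at 28.8 and Arrdc4 at 3.94 FPKM. There only Arrdc4 had a range clear of its neighbour. Within single libraries, Khk stood above Tkfc in all 5 of each group. Tkfc stood above Pklr in all 5 AAV8-TBG-galectin-3 libraries, and Mlxipl above Txnip in all 5 AAV8-NC libraries. The other neighbours with overlapping ranges kept the order of their means in 2 to 4 libraries. Rgs16, Pklr and Mlxipl thus stood above Gpd1 in the mean of AAV8-TBG-galectin-3 livers and below it in the mean of AAV8-NC livers.

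The variation of the members between libraries of one group is separate from the group difference used to choose them. Each log2 value was set against its group mean, and the 28 pairs of members were compared over the 10 libraries with an exact two-sided permutation within groups (14400 arrangements). Pklr and Tkfc varied together, with a Pearson r of 0.94 (p = 0.00264, adjusted p = 0.0457 over the 28 pairs, exact permutation). Their rank correlation was 0.80 (p = 0.0192, adjusted p = 0.134), and r was 0.92 without AAV8-TBG-galectin-3 library 5 and AAV8-NC library 1, the 2 farthest on Pklr. Pklr and Khk had an r of 0.85 (exact permutation p = 0.00326, adjusted p = 0.0457) and a rank correlation of 0.80 (adjusted p = 0.134), but r was 0.64 without the same 2 libraries, so part of the relation rested on them.

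Rgs16 and Khk had the same rank order in each group, a rank correlation of 1 (p = 0.000139, the smallest these arrangements can give, adjusted p = 0.00389, exact permutation). Their Pearson r was 0.81 (exact permutation p = 0.00854, adjusted p = 0.0598) and 0.77 without the 2 libraries farthest on Rgs16. For Pklr and Rgs16 r was 0.81 (exact permutation p = 0.00542, adjusted p = 0.0506), and 0.51 without the 2 libraries. By Pearson 2 of 28 pairs passed and by rank 1 did. The 2 Pearson calls were close to the threshold. Under 17 other scalings, pseudocounts and left-out libraries, added after seeing the data, the Pearson call held in 6 for Pklr and Tkfc, where r stayed between 0.92 and 0.97. For Pklr and Khk it also held in 6, with r from 0.64 to 0.89. Pklr and Rgs16 passed in 6 of the 17, with r from 0.51 to 0.88. Rgs16 and Khk passed by Pearson in 5 of the 17, with r from 0.76 to 0.85. Their rank correlation was 1 in all 17 and passed in 16, the exception being the 2 libraries left out together (adjusted p = 0.0972, exact permutation).

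None of the 7 pairs that include Mlxipl passed. Its r was 0.59 with Khk, 0.57 with Rgs16, 0.50 with Pklr, 0.34 with Tkfc, 0.34 with Txnip, -0.05 with Gpd1 and -0.41 with Arrdc4, with exact permutation adjusted p from 0.269 to 0.885. A difference between these r values and those among the targets was not tested. These values pool 2 groups that looked unlike. In AAV8-NC livers Mlxipl and Khk put the 5 libraries in the same order, while in AAV8-TBG-galectin-3 livers Mlxipl was highest in library 1 and Khk in library 5. With 5 libraries a group no r is given for either alone, and the difference between the groups was not tested. Over all 28 pairs r ran from -0.41 to 0.94 with a median of 0.35, and 25 were above 0. AAV8-TBG-galectin-3 library 5 was the highest of its group for 5 members (Pklr, Khk, Tkfc, Rgs16 and Arrdc4). AAV8-NC library 1 was the highest of its group for 6 (Mlxipl, Pklr, Khk, Tkfc, Rgs16 and Txnip).

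**Figure D3:**
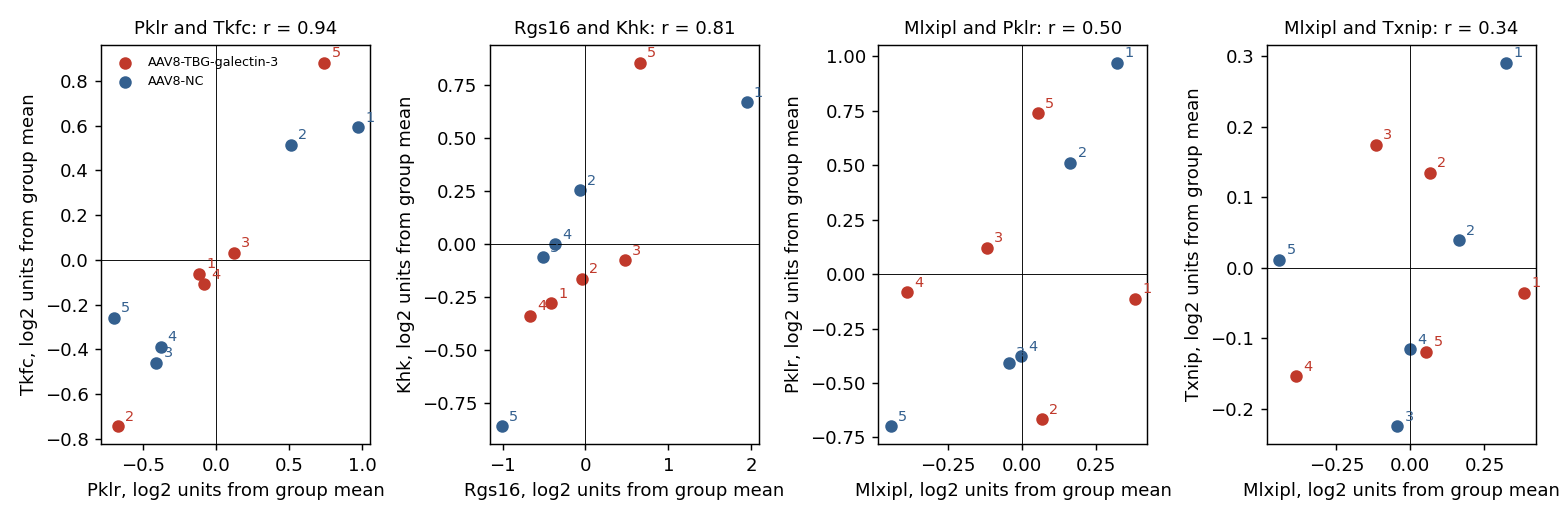
Within-group variation of 4 pairs of members in 10 libraries, each axis in log2(FPKM + 1) units from the group mean, with AAV8-TBG-galectin-3 in red, AAV8-NC in blue and digits giving the library number. Pklr and Tkfc (r = 0.94) and Rgs16 and Khk (r = 0.81) lie along a line, while Mlxipl and Txnip (r = 0.34) scatter. For Mlxipl and Pklr (r = 0.50) the blue points have the same order on both axes and the red points do not.

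The genes most like Mlxipl in this within-group variation over 10 libraries, by Pearson r and as a description, were Ndufa6 (0.96), Slc17a3 (0.95), Adra1b (0.95), Zfp523 (0.94) and Shf (0.94). Ndufa6 encodes an accessory subunit of mitochondrial complex I, Slc17a3 an organic anion transporter, and Adra1b an alpha-1 adrenergic receptor. In the same ranking Khk would have come at place 751 for Mlxipl and Pklr at place 1308. For Rgs16 the closest were Rpl23 (0.92), Rps23 (0.91), Spry4 (0.88), Gatd3a (0.86) and Scrn2 (0.86), and Pklr and Khk, had they been listed, would both have come at place 24. Rpl23 and Rps23 encode ribosomal proteins and have near-identical processed copies elsewhere in the genome, so their FPKM is uncertain.

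The rest of the pathway was followed through 10 lists with 106 tested genes that were not members, of which 6 were higher and 10 lower in AAV8-TBG-galectin-3 livers by limma at an adjusted p of 0.05. That is 15.1% beside the 16.8% of all tested genes, and the median log2 fold change was -0.06 beside -0.04. With no filter on low values 3 higher ones (Gckr, Pgls and Fgf21) and 3 lower ones (Ldha, Mxd4 and Foxo1) kept the call. With the length trend removed the calls of Tm6sf2, Mxd4, Mnt, Gpd1l, Pcx and Foxo1 ended. The lists, too, were drawn up with results of these data known. A few of the genes below were singled out after their values were seen, namely Gpi1, Pkm, Mlx, Slc37a4, Fasn, Scd1, Acly, Dbp and Npas2.

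In the network of Mlx and Max partners, 0 of 9 tested genes rose and 2 fell. Mxd4, a Max partner that represses transcription, averaged 8.97 ± 0.473 FPKM in AAV8-TBG-galectin-3 livers and 11.3 ± 0.959 FPKM in AAV8-NC livers (SD, n = 5 each, log2 fold change -0.30, adjusted p = 0.0235 by limma). Mnt, another such repressor, averaged 3.37 ± 0.618 FPKM in AAV8-TBG-galectin-3 livers and 4.64 ± 0.668 FPKM in AAV8-NC livers (log2 fold change -0.37, adjusted p = 0.0466 by limma). Mnt kept its call only when AAV8-TBG-galectin-3 library 4 or AAV8-NC library 1 was the one left out, and Mxd4 lost it without AAV8-TBG-galectin-3 library 3 or AAV8-NC library 2, 3 or 4. Mlx, the obligate partner of ChREBP, had 23.2, 16.4, 19.3, 18.8 and 20.3 FPKM in AAV8-TBG-galectin-3 livers, against 14.5, 15.3, 13.3, 14.7 and 20.3 FPKM in AAV8-NC livers. Only AAV8-NC library 5 reached the AAV8-TBG-galectin-3 range, and the log2 fold change of 0.32 (SE 0.12, adjusted p = 0.0847 by limma) did not pass.

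Of 26 tested genes of glucose uptake and glycolysis 2 rose and 4 fell. Gckr, which encodes a regulatory protein of hepatic glucose phosphorylation, had 90.9, 80.4, 72.4, 64.6 and 87.8 FPKM in AAV8-TBG-galectin-3 livers, against 60.6, 50.7, 40.3, 42.1 and 40.9 FPKM in AAV8-NC livers. The groups did not overlap, and the log2 fold change was 0.75 (SE 0.13, adjusted p = 0.00944 by limma), a call kept with each library left out. Gpi1, glucose-6-phosphate isomerase, averaged 49.1 ± 9.41 FPKM in AAV8-TBG-galectin-3 livers and 35.6 ± 5.92 FPKM in AAV8-NC livers (log2 fold change 0.45, adjusted p = 0.0456 by limma), a call that was kept on leaving out AAV8-NC library 1 and lost on leaving out any other library. Ldha, lactate dehydrogenase A, had 120, 172, 163, 165 and 146 FPKM in AAV8-TBG-galectin-3 livers, against 181, 213, 269, 236 and 262 FPKM in AAV8-NC livers. The 2 ranges did not meet, the log2 fold change was -0.59 (SE 0.13, adjusted p = 0.0166 by limma), and the call held with each library left out.

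The other 3 that fell were Slc2a1, the glucose transporter found in most cell types, at a log2 fold change of -0.42 (adjusted p = 0.0241 by limma), Aldoc, aldolase C, at -0.46 (adjusted p = 0.0306 by limma), and Pkm, the pyruvate kinase of non-hepatocyte tissues, at -0.52 (adjusted p = 0.0391 by limma). Slc2a1 lost its call without AAV8-TBG-galectin-3 library 3 or AAV8-NC library 2. Aldoc kept its call only on leaving out AAV8-TBG-galectin-3 library 3 or 4 or AAV8-NC library 5, and Pkm only on leaving out AAV8-TBG-galectin-3 library 4 or AAV8-NC library 5. Pkm averaged 10.4 ± 2.14 FPKM in AAV8-TBG-galectin-3 livers and 15.4 ± 2.75 FPKM in AAV8-NC livers (SD, n = 5 each), while Pklr, as given above, averaged 133 FPKM in AAV8-TBG-galectin-3 livers and 62.9 FPKM in AAV8-NC livers. Of 6 tested macrophage markers 2 fell (Adgre1 and Cd5l) and 0 passed as higher, beside 9.65% lower among all tested genes. The log2 fold change was below 0 for 5 of the 6 and above 0 for Marco (0.70, adjusted p = 0.41 by limma). Clec4f (-0.26) and Cd68 (-0.21) did not pass. Timd4 was at 0 in at least 1 library and was not tested. The macrophage list summed to 63.4 to 110 FPKM in AAV8-TBG-galectin-3 livers and 104 to 174 FPKM in AAV8-NC livers. Lists of other non-hepatocyte types were followed in the same way. Of 7 stellate cell markers 2 fell and all 7 had a negative log2 fold change, with sums of 49.3 to 96.3 FPKM in AAV8-TBG-galectin-3 livers and 84.2 to 98.9 FPKM in AAV8-NC livers. Of 5 sinusoidal endothelium markers 1 fell, with 4 below 0 and 1 above, and of 4 tested cholangiocyte markers 0 passed although all 4 were negative. These counts, too, stand beside 9.65% lower among all tested genes. Of 2 tested neutrophil markers 0 passed and 2 were above 0. Of 2 tested T and NK cell markers 0 passed, with 1 above 0 and 1 below. The part of these cells in the result was not tested, and in bulk liver fewer cells of a type and less RNA per cell cannot be told apart.

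Among 9 tested genes of fructose, polyol and glycerol metabolism beside the members, 1 fell and 0 rose. It was Gpd1l, the paralog of Gpd1, at 4.21 ± 0.485 FPKM in AAV8-TBG-galectin-3 livers and 5.17 ± 0.221 FPKM in AAV8-NC livers (SD, n = 5 each, log2 fold change -0.25, adjusted p = 0.046 by limma). With 1 library left out it passed only when that was AAV8-TBG-galectin-3 library 2, and with median-of-ratios scaling its adjusted p was 0.0874. In the pentose phosphate pathway 1 of 8 rose, Pgls, 6-phosphogluconolactonase, at 16.8 ± 1.40 FPKM in AAV8-TBG-galectin-3 livers and 13.4 ± 0.857 FPKM in AAV8-NC livers (log2 fold change 0.31, adjusted p = 0.0227 by limma), a call lost without AAV8-TBG-galectin-3 library 5 or AAV8-NC library 2 or 3. In gluconeogenesis 1 of 7 fell, Pcx, pyruvate carboxylase, at 62.2 ± 6.20 FPKM in AAV8-TBG-galectin-3 livers and 79.3 ± 6.89 FPKM in AAV8-NC livers (log2 fold change -0.35, adjusted p = 0.0289 by limma). Pcx lost its call without AAV8-TBG-galectin-3 library 3 or 5 or AAV8-NC library 1, 2 or 3, and with the length trend removed (adjusted p = 0.115). Slc37a4, the glucose-6-phosphate transporter and a described ChREBP target, averaged 64.0 ± 19.6 FPKM in AAV8-TBG-galectin-3 livers and 40.3 ± 11.2 FPKM in AAV8-NC livers (log2 fold change 0.65, adjusted p = 0.0542 by limma) and missed the threshold.

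Other genes described as ChREBP targets showed 3 rises and 0 falls among 18 tested, beside 7.13% higher and 9.65% lower among all tested genes. Of the 18, 11 had a log2 fold change above 0 and 7 below it. Fgf21, a liver hormone of nutrient stress and sugar intake, had 376, 169, 182, 328 and 315 FPKM in AAV8-TBG-galectin-3 livers, against 143, 65.6, 59.4, 28.8 and 31.3 FPKM in AAV8-NC livers. Its groups did not overlap (log2 fold change 2.22, SE 0.40, adjusted p = 0.00947 by limma), and AAV8-NC library 1 was again the highest of its group. Angptl8, a feeding-induced inhibitor of lipoprotein lipase, had 273, 131, 209, 170 and 370 FPKM in AAV8-TBG-galectin-3 livers, against 163, 44.9, 48.8, 38.8 and 86.1 FPKM in AAV8-NC livers (log2 fold change 1.71, SE 0.39, adjusted p = 0.0174 by limma). The same AAV8-NC library alone reached the range of the AAV8-TBG-galectin-3 libraries, and both calls held with each library left out. Tm6sf2, which takes part in lipoprotein secretion, averaged 22.9 ± 2.70 FPKM in AAV8-TBG-galectin-3 livers and 15.6 ± 4.50 FPKM in AAV8-NC livers (log2 fold change 0.57, adjusted p = 0.0397 by limma), but kept its call only on leaving out AAV8-TBG-galectin-3 library 2 or AAV8-NC library 1 or 5. The fat synthesis genes of this list did not pass. Fasn, fatty acid synthase, had a log2 fold change of 0.48 (SE 0.46, adjusted p = 0.488 by limma), and Scd1, stearoyl-CoA desaturase, one of -0.67 (SE 0.60, adjusted p = 0.462 by limma). Acly of the same list had one of -0.51 (SE 0.22, adjusted p = 0.127 by limma).

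Relatives of the members by family were also followed. Of 3 tested alpha-arrestins 0 passed, and Arrdc1 had the smallest p among them (log2 fold change 0.16, adjusted p = 0.526 by limma). Of 7 tested regulators of G protein signalling beside Rgs16 0 passed. Rgs2 came nearest, at 2.36 ± 0.486 FPKM in AAV8-TBG-galectin-3 livers and 3.32 ± 0.530 FPKM in AAV8-NC livers (SD, n = 5 each, log2 fold change -0.37, adjusted p = 0.0512 by limma), with every AAV8-TBG-galectin-3 library below every AAV8-NC library. In the insulin-responsive list 1 of 7 fell, Foxo1, a transcription factor of fasting metabolism (log2 fold change -0.23, adjusted p = 0.0329 by limma), kept only on leaving out AAV8-TBG-galectin-3 library 2 or 4 or AAV8-NC library 4 or 5. Its adjusted p was 0.258 with the length trend removed.

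Feeding and time of day act on several members, and the list of clock and clock output genes shows 1 fall and 0 rises among 12 tested. Of the 12, 7 had a log2 fold change below 0 and 5 above it. Nr1d1, the clock repressor REV-ERB-alpha, had 15.7, 31.2, 38.6, 17.9 and 15.4 FPKM in AAV8-TBG-galectin-3 livers, against 57.8, 49.6, 40.1, 41.8 and 37.4 FPKM in AAV8-NC livers (log2 fold change -0.99, SE 0.24, adjusted p = 0.0229 by limma). Its call was lost without AAV8-TBG-galectin-3 library 1 or 5 or AAV8-NC library 2. Dbp, a clock output factor that peaks late in the day, averaged 1.99 ± 2.22 FPKM in AAV8-TBG-galectin-3 livers and 8.61 ± 5.62 FPKM in AAV8-NC livers (log2 fold change -1.71, SE 0.54, adjusted p = 0.0508 by limma) and did not pass. Npas2 of the same list lay the other way, at 2.98 ± 1.22 FPKM in AAV8-TBG-galectin-3 livers and 1.43 ± 0.531 FPKM in AAV8-NC livers. Its log2 fold change of 0.68 (SE 0.22, adjusted p = 0.0526 by limma) did not pass either. Whether collection time or feeding differed between the mice is not stated in the labels, and the part of either in the member values was not tested.

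**Figure D4:**
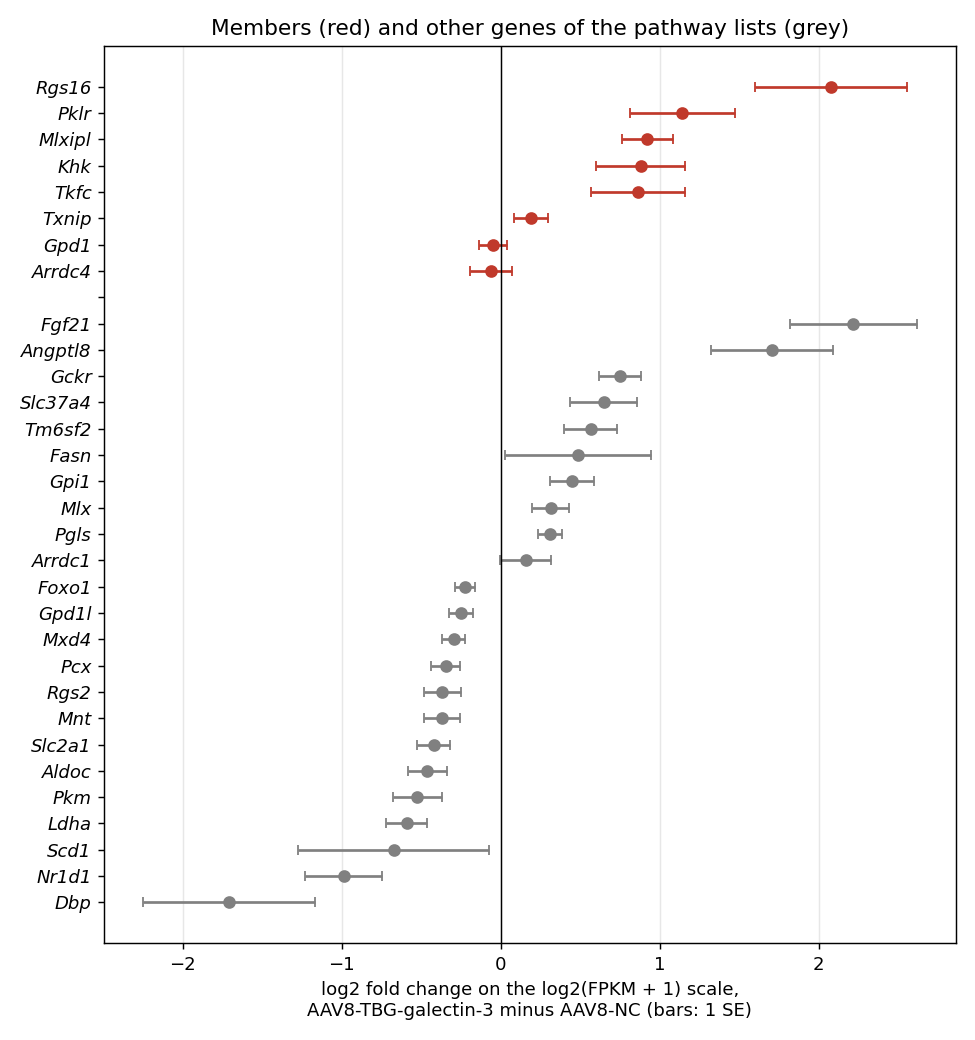
Log2 fold change of AAV8-TBG-galectin-3 minus AAV8-NC on the log2(FPKM + 1) scale for the 8 members (red) and for the named genes of the pathway lists (grey), with bars of 1 SE over 5 and 5 libraries. Acly and Npas2 are not drawn. Rgs16 at 2.08 leads the members and Fgf21 at 2.22 leads the grey points, while Txnip, Gpd1 and Arrdc4 lie near 0.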

How the data were processed

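Poly(A) RNA from 10 livers was made into strand-marked libraries, per the labels' protocols. The submitters' processing notes name cutadapt 1.9, HISAT2 2.0.4 and StringTie 1.3.4d and a human build, GRCh38, while the identifiers are mouse Ensembl ones, so the mouse build is not known here. The authors deposited FPKM for each library. They also deposited their own comparison, with a fold ratio, its log2 value, a p-value and a q-value, from a test that no source here names. Per the file headers, columns name each library, and 0 value columns had no sample. Replicates are separate samples by their titles, which do not state 1 mouse per library, so p-values measure the spread between these samples. Depth is not recorded, and low values were whole multiples of a common step (tolerance 0.02) for 12.4 to 14.5% of them, so reads were not recovered and no counting interval is given.

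Groups and replicate numbers came from the titles. Genes that reached 0.5 FPKM in 5 or more libraries were compared as log2(FPKM + 1) by limma 3.58.1 (R 4.3.3, trend option), two-sided, adjusted by Benjamini-Hochberg and called at 0.05, since the file held no counts. Fold changes on this scale understate low genes. The fit was tested on simulated data. The members and all lists were chosen with earlier results of these data known. Besides members and Lgals3, the rule named up to 4 called genes of each list by smallest p, or the 1 with the smallest p, and the 5 genes most like Mlxipl and Rgs16. Transcript lengths came from GENCODE M21, matched for 97.9% of tested genes. Alternatives were pseudocounts, filters, scalings, weights, a replicate block, length trend removal and left-out libraries. Same-numbered libraries showed no clear shared deviation, so the main fit did not pair them. With 5 libraries a group this check cannot settle whether the numbers mark pairs. Some genes of the lists are not reported here.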

Additional observations from a re-analysis of the deposited data

Results flagged for a closer look

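The gap check covered 64 groups of 5 log2 values, those of the members, Lgals3 and the named pathway genes other than Acly and Npas2. In 5 of them a library had a gap to the nearest of the others that exceeded 0.71 of the group's range. Chance gives about 1 such group in 20. Khk stood at 415 FPKM in AAV8-TBG-galectin-3 library 5, with the other 4 at 181 to 217 FPKM. Gpi1 stood apart in the same library, at 65.6 FPKM with the others at 42.5 to 47.6 FPKM. Arrdc4 was at 3.34 FPKM in AAV8-NC library 2, with the others at 4.02 to 4.21 FPKM. Pcx was at 51.7 FPKM in AAV8-TBG-galectin-3 library 1, with the others at 62.9 to 68.1 FPKM. Foxo1 was at 2.49 FPKM in AAV8-NC library 4, with the others at 2.79 to 2.89 FPKM.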

How the results depend on the processing

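As a description, the log2 fold change of Mlxipl was 0.82 to 1.01 under the 11 planned settings and 0.81 to 1.02 with 1 library left out. The same ranges were 1.06 to 1.21 and 0.96 to 1.39 for Pklr, 2.04 to 2.18 and 1.83 to 2.57 for Rgs16, 0.73 to 0.93 and 0.67 to 1.05 for Khk, and 0.80 to 0.92 and 0.64 to 1.05 for Tkfc. With no filter, 29657 genes were tested, 511 were higher and 682 lower, 1 member was higher, and 3 pathway genes were higher and 3 lower. Array weights gave 2047 lower genes and 12 higher pathway genes. Length trend removal gave 894 higher and 720 lower genes and 5 lower pathway genes. Of called genes 42.5% were higher, beside 54.4% with median-of-ratios scaling (1212 higher, 1017 lower), 31.7% without mitochondrially encoded genes (745 and 1605) and 55.4% with the length trend removed. Leaving out 1 library gave 442 to 966 higher and 549 to 1736 lower genes, 2 to 5 higher members, and 3 to 8 higher and 1 to 13 lower pathway genes. Leaving out AAV8-TBG-galectin-3 library 5 and AAV8-NC library 1 together, added after seeing the data, gave 472 higher and 502 lower genes and 2 lower pathway genes. The log2 fold change of Lgals3 ran from -0.0934 to 0.264 with 1 library left out, that of Arrdc4 from -0.137 to 0.0496 and that of Gpd1 from -0.0938 to 0.00398. With the length trend removed they were 0.0354 for Arrdc4 and 0.0136 for Gpd1. Why these values moved was not tested, beyond the larger number of genes tested without a filter and the smaller number of libraries. With the replicate block 769 genes were higher and 986 lower, and 2 members were among the higher ones. Same-numbered libraries correlated at -0.015 to 0.11, and 2 of 5 matched their own number best. Precision is limited by the 5 libraries of each group, since depth is not recorded.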
